A study of Mus musculus with 8 samples.

Results

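Messenger RNA was measured for 10 genes that encode the desmin filament network and mechanical stress proteins of striated muscle: Des, Synm, Sync, Flnc, Xirp1, Xirp2, Ankrd1, Ankrd2, Cmya5 and Capn3. The genes were taken by name, by a rule with no threshold on measured values, and every non-control array probe whose transcript accession maps to one of these symbols was taken. The choice of genes was nevertheless made with earlier results of these data known, so their counts below are descriptions. This gave 16 probes, of 55681 non-control probes in all. All 16 passed the filter on dim signal (well above background on at least 4 of 8 arrays), and the 10 genes stand among 12739 named genes that passed it.

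The tissue came from male C57BL/6 mice and was the extensor digitorum longus (EDL), which consists mostly of fast fibres. In 4 mice, called PCKO, p300 (gene Ep300) and CBP (gene Crebbp) were knocked out inducibly and only in skeletal muscle, although the genotype field of these mice reads CBP (PCKO). The other 4 were wildtype mice (WT). A protocol text attached to both groups describes 5 days of oral tamoxifen at 13 to 15 weeks of age. Muscles were collected 1 day later, when the mice had fasted for 4 h. The promoter that drives the recombinase, and whether WT mice carried any of the engineered alleles, are not given in the sources used here. Each mouse had its own single-colour Agilent array. Ep300 was lower in PCKO by a log2 difference of -1.44 ± 0.11 and Crebbp by -0.70 ± 0.11. Crebbp was no longer called with arrays centred on spike-ins (-0.018, adjusted p = 0.96) or with another background correction (-0.41, adjusted p = 0.055). The place of these probes relative to the deleted parts is not known here, so they do not check the deletion.

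Desmin is the main intermediate filament protein of muscle. Its filaments surround the Z-discs and tie neighbouring myofibrils to one another, to the sarcolemma and to nuclei and mitochondria. Synemin and syncoilin are filament proteins that join this network, and filamin C, the Xin proteins and myospryn link actin or desmin to Z-discs and membrane attachment sites. The muscle ankyrin repeat proteins and calpain 3 bind titin, the elastic filament of the sarcomere, and several of these genes are known to respond to stretch or to damage.

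All levels below are log2 of the processed spot intensity minus the array's 75th percentile, so 0 is the level of that percentile and 1 unit is 2-fold. Differences are given as PCKO minus WT on this log2 scale, each with its standard error from limma (n = 4 mice per group), and a gene is called where the p-value adjusted over all probes tested is under 0.05. Levels of different probes are not comparable, so genes are compared only by their differences. The summed marker levels given below weigh bright probes most and are compared only between groups. Of the 10 genes, each represented by its brightest probe, 6 were called lower in PCKO (Des, Synm, Sync, Xirp2, Cmya5, Capn3), 3 were called higher (Flnc, Xirp1, Ankrd1) and 1, Ankrd2, was not called. In the whole comparison 69.4% of genes were called, 31.9% lower and 37.5% higher, so calls are common here. In this scaling all 9 called genes differed by 2-fold or more, as 13.9% of all genes did toward lower and 11.6% toward higher values. In 9 of the 10 genes the 4 PCKO values lay on one side of all 4 WT values, against 65.6% of all genes, and in 6 they lay below (29.6%). Counted by probe, 12 of the 16 were called lower and 3 higher, against 31.3% and 33.8% of all probes tested (65.1% in either direction), and 15 did not overlap between groups (59.9%). The median difference of the 10 genes was -1.64, and that of all genes tested was 0.06.

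The 9 calls kept their direction under each scaling tried. Relative to 7 spike-in control probes, the 75th percentile itself was 0.68 log2 units higher in PCKO (-2.80 ± 0.33 in PCKO and -3.48 ± 0.30 in WT, SD, n = 4 each). A two-sided exact permutation gave p = 0.029, its lower limit with 4 mice a group. With these spike-ins as the base, every log2 difference moved up by 0.68, and still 6 of the 10 genes were called lower and 3 higher. Des (-0.97) and Sync (-0.94) were then under 2-fold. Error shared by an array enters this centring, so its p-values are too small, here and in the spike-in counts below. The groups still did not overlap in 9 of the 10 genes. Fewer fibres and less RNA per fibre cannot be told apart in whole muscle. Markers of skeletal muscle fibres were present on all arrays and were lower in 8 of 8 cases. Their summed level was 2056 to 2458 in PCKO and 6957 to 8618 in WT, in multiples of the 75th percentile. The fibre markers differed unequally by brightest probe, from -0.63 (Tnni2), -0.66 (Myh4) and -0.76 (Tnnt3) to -5.40 (Pvalb, other probe -2.26). Why they differed unequally was not tested. Smooth muscle, which also makes desmin, synemin and filamin C, had 6 of 6 markers lower (summed level 51.1 to 69.3 in PCKO and 99.4 to 125 in WT). These marker counts depend on the scaling: centred on spike-ins, a check added after seeing the data, 5 of the 8 fibre markers and 0 of the 6 smooth muscle markers were called lower. Their part in the differences below was not tested.

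**Figure D1:**
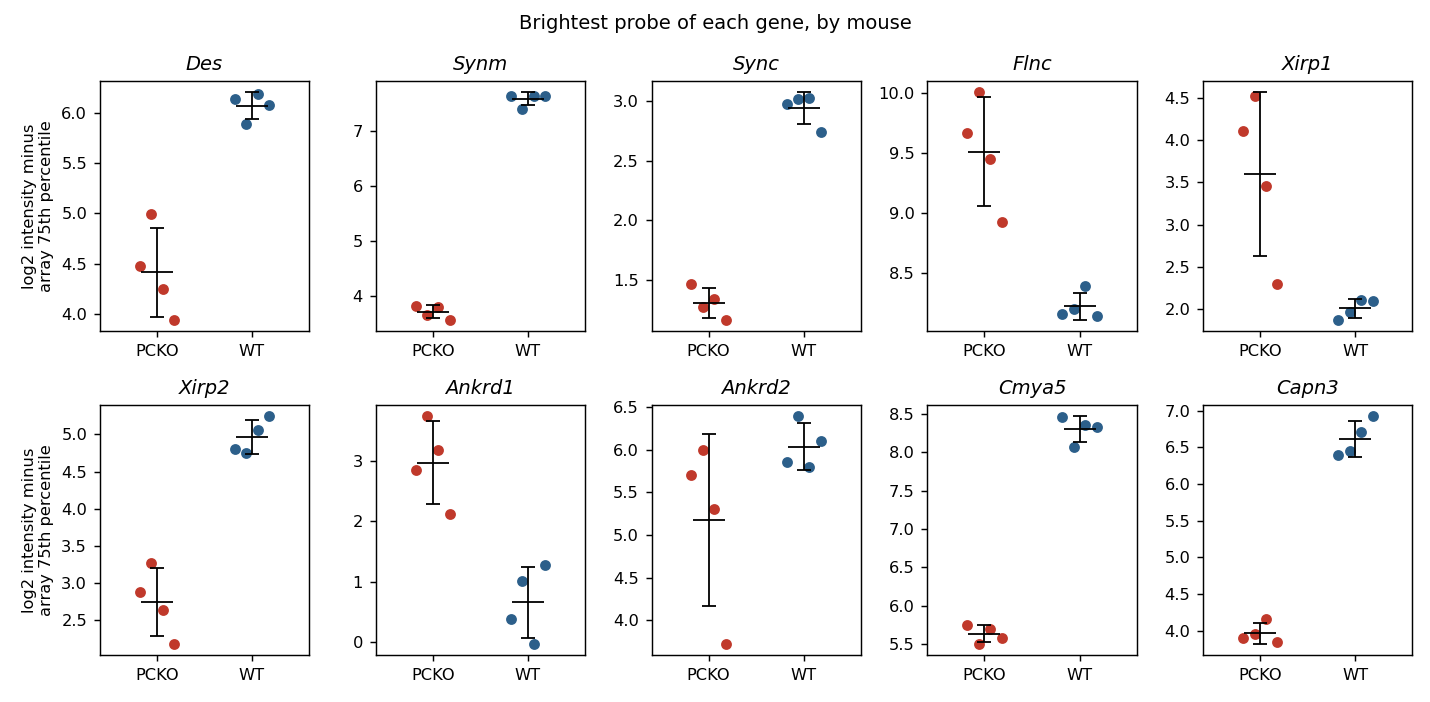
Level of the brightest probe of each of the 10 genes in each mouse (points), with the mean and SD of each group (bars). The vertical axes give log2 intensity minus the array's 75th percentile, and each panel has its own range. PCKO values lie below all WT values for Des, Synm, Sync, Xirp2, Cmya5 and Capn3, above them for Flnc, Xirp1 and Ankrd1, and overlap them for Ankrd2.

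The DNA before the transcription start was read from the RefSeq promoter table (GRCm38.p6) for 9 of the 10 genes. Xirp1 was not matched there. Windows of 250 bases before to 50 after the start were searched on both strands for CATTCC (MCAT, the motif bound by TEAD factors), CAGCTG (an E-box, bound by myogenic bHLH factors), the CArG box (bound by SRF) and the MEF2 box. MCAT occurred in the windows of Ankrd1 and Flnc, and in none of the other 7 matched genes. It occurs in 14.7% of all 32851 promoters in the table. Ankrd1 held 2 copies, as 1.36% of promoters hold at least 2. The MEF2 box (3.19% of promoters) occurred in Xirp2 and Capn3, the E-box (16.3%) in Des, Sync and Capn3, and the CArG box (1.63%) in none. No motif overlapped another. Such matches are runs of letters, not shown binding sites, and an empty window says nothing of a factor. Whether any motif goes with the direction of change was not tested. The windows that carry MCAT or the MEF2 box are shown from 240 bases before to 10 after the start, 5′ to 3′ on the gene's strand, with the matched motifs in capitals. The window of the second annotated Flnc start, which overlaps the first and holds the same MCAT, is not shown.
Ankrd1: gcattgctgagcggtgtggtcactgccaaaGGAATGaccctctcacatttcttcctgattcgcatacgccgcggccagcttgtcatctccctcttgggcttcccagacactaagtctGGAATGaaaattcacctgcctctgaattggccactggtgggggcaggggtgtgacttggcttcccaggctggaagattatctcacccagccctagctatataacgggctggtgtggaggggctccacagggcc
Flnc: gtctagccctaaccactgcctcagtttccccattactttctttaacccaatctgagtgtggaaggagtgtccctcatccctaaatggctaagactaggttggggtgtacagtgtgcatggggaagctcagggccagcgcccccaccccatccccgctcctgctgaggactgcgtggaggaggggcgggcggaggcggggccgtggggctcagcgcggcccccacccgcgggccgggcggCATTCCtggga
Xirp2: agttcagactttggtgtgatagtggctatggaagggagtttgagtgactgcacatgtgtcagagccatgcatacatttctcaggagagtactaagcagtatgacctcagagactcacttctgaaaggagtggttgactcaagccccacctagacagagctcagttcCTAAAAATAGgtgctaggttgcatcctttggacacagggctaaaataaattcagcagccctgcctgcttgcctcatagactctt
Capn3: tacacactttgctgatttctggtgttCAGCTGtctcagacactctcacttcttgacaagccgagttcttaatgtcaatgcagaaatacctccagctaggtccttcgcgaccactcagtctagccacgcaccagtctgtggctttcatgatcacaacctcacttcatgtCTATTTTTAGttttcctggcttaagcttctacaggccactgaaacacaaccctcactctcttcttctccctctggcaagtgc
These lie at chr19:36119835-36120084, minus strand, at chr6:29432913-29433162, plus strand, at chr2:67445762-67446011, plus strand, and at chr2:120463353-120463602, plus strand. In Ankrd1 the capitals mark MCAT on the minus strand of the printed sequence, at bases -210 to -205 and -123 to -118 from the start. In Flnc the single MCAT spans the start itself, at bases -1 to 5, and the second annotated Flnc start lies downstream of the same motif. In Xirp2 the MEF2 box is at bases -74 to -65. In Capn3 the capitals mark an E-box at -214 to -209 and a MEF2 box at -72 to -63. The window of a second annotated Capn3 start holds an E-box at bases 28 to 33 and no MEF2 box, and is not shown.

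Among the filament proteins, synemin fell furthest. Synm encodes a large intermediate filament protein that assembles with desmin and anchors it to Z-disc and membrane proteins. Its brightest probe read 3.82, 3.66, 3.79 and 3.57 in PCKO mice 1 to 4, against 7.64, 7.40, 7.64 and 7.64 in WT mice 1 to 4. The groups lie nearly 4 units apart, and all PCKO mice are close together. The difference was -3.87 ± 0.10 (adjusted p = 2.8e-08), or 14.6-fold lower, which is rank 153 of 12739 genes counted from the lowest. Only 1.79% of genes were 10-fold or more lower. Synm had 5 probes on the array, more than any other gene of the group, and they differed by -4.51 to -3.87. One of them targets another transcript record than the other 4 and differed by -4.23 ± 0.16, within the range of the rest.

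Des itself fell by less. Desmin mRNA read 4.47, 4.99, 4.25 and 3.95 in PCKO mice 1 to 4, against 6.13, 5.88, 6.18 and 6.08 in WT mice. Every PCKO mouse is below every WT mouse, with more spread among PCKO mice. The difference was -1.65 ± 0.20 (adjusted p = 1.5e-04), or 3.15-fold lower. This probe is printed as 10 spots per array, whose SD within an array was 0.03 to 0.10. The SD between PCKO mice was larger, at 0.44. One spot was left out as an outlier on each of the WT 2 and WT 3 arrays.

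Syncoilin, encoded by Sync, binds desmin and dystrobrevin at the membrane. It read 1.47, 1.27, 1.34 and 1.17 in PCKO mice, against 2.97, 3.02, 3.02 and 2.74 in WT mice. The groups are tight and separate. The difference was -1.63 ± 0.10 (adjusted p = 2.5e-06), or 3.09-fold lower.

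Myospryn, encoded by Cmya5, is a large TRIM-related protein that binds desmin and alpha-actinin and anchors protein kinase A. Its brightest probe read 5.75, 5.51, 5.70 and 5.58 in PCKO mice, against 8.46, 8.06, 8.36 and 8.33 in WT mice. The difference was -2.67 ± 0.11 (adjusted p = 2.2e-07), or 6.35-fold lower, and the other probe differed by -2.45 ± 0.12. Both probes separate the groups.

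Capn3 encodes calpain 3, a muscle protease held on titin whose loss causes a limb-girdle muscular dystrophy in people. It read 3.90, 3.96, 4.16 and 3.84 in PCKO mice, against 6.39, 6.44, 6.70 and 6.92 in WT mice. The difference of this probe was -2.65 ± 0.14 (adjusted p = 8.7e-07), or 6.27-fold lower. A second, dim probe for another Capn3 transcript was well above background on 1 of 4 PCKO arrays and on 4 of 4 WT arrays. It differed by -2.98 ± 0.52, a size that depends on the background, and by -0.87 with another background correction.

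**Figure D2:**
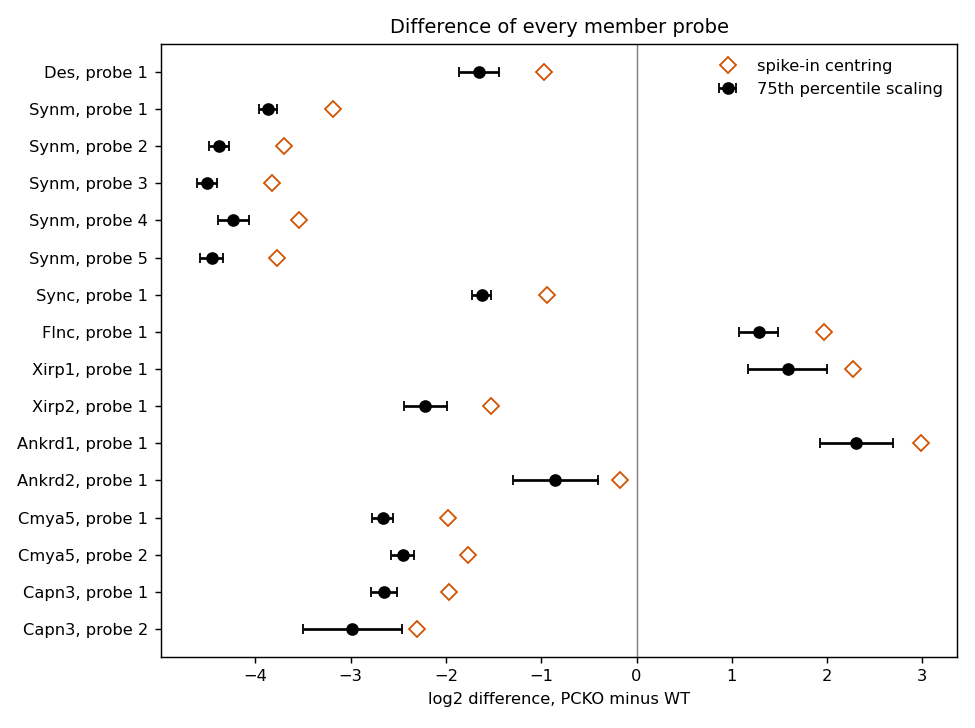
Log2 difference, PCKO minus WT, of all 16 probes (horizontal axis), with the standard error of the fit as bars on the filled points. Open diamonds give the same difference centred on spike-ins, 0.68 units to the right. All 5 Synm probes and both probes of Cmya5 and of Capn3 lie on the same side of 0 as each other under both scalings.

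Flnc, Xirp1 and Ankrd1 stood on the other side. Flnc encodes filamin C, the actin cross-linker of striated muscle, which sits at Z-discs and moves to damaged myofibrils. It read 9.66, 10.002, 9.45 and 8.92 in PCKO mice, against 8.16, 8.21, 8.39 and 8.15 in WT mice. All PCKO mice are above all WT mice, and no spot was saturated. The difference was 1.28 ± 0.21 (adjusted p = 7.1e-04), or 2.43-fold higher.

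Xirp1 encodes Xin, an actin-binding repeat protein of muscle attachment sites that binds filamin C. It read 4.11, 4.52, 3.45 and 2.30 in PCKO mice, against 1.87, 1.96, 2.11 and 2.09 in WT mice. The groups do not overlap, but PCKO 4 lies close to the WT mice while the other 3 PCKO mice lie well above. The difference was 1.59 ± 0.42 (adjusted p = 0.0093), or 3.004-fold higher. Within the upper row of arrays on the slide (mice 1 and 2 of each group) the difference was 2.40. Within the lower row (mice 3 and 4) it was 0.78 and not called (adjusted p = 0.20).

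Ankrd1 encodes CARP, a muscle ankyrin repeat protein that binds titin and also enters the nucleus. It read 2.85, 3.73, 3.18 and 2.11 in PCKO mice, against 0.38, 1.02, -0.02 and 1.27 in WT mice. Both groups are spread, and the lowest PCKO mouse is still above the highest WT mouse. The difference was 2.31 ± 0.38 (adjusted p = 8.4e-04), or 4.94-fold higher, at rank 12496 of 12739 from the lowest. Within the slide rows it was 2.59 and 2.02, the second not called (adjusted p = 0.058). Its promoter is the one printed above with 2 MCAT motifs, whose part in this difference was not tested.

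The relatives of Xirp1 and Ankrd1 were not called higher. Xirp2 encodes the second Xin repeat protein, which binds actin and alpha-actinin. It read 2.89, 3.27, 2.63 and 2.19 in PCKO mice, against 4.80, 4.75, 5.06 and 5.24 in WT mice. The difference was -2.22 ± 0.22 (adjusted p = 4.6e-05), or 4.65-fold lower, with no overlap between groups.

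Ankrd2 encodes Arpp, the ankyrin repeat relative of CARP that also binds titin. It read 5.70, 5.99, 5.30 and 3.73 in PCKO mice, against 5.85, 6.39, 5.79 and 6.11 in WT mice. The groups overlap, and PCKO 4 lies far below the other 7 mice. The difference of -0.85 ± 0.45 was not called (adjusted p = 0.12), and was -0.37 without PCKO 4 (adjusted p = 0.15).

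A difference between genes within 1 array is untouched by any constant subtracted from that array, so 4 pairs were compared in this way. The pairs were chosen with earlier results of these data known. On the log2 scale Ankrd1 minus Ankrd2 was -2.21 ± 0.51 in PCKO and -5.37 ± 0.40 in WT (SD, n = 4 each). The balance therefore moved by 3.16 ± 0.32 (SE), an 8.94-fold higher ratio, with no overlap (exact permutation test, two-sided, p = 0.029, adjusted p = 0.038 over the 4 pairs). Xirp1 minus Xirp2 was 0.85 ± 0.53 in PCKO and -2.95 ± 0.15 in WT, and this balance moved by 3.80 ± 0.28, or 13.96-fold (exact p = 0.029, adjusted p = 0.038). PCKO 4, closest to WT in Xirp1, still stood at 0.11 against at most -2.79 in WT. All PCKO mice were above all WT mice in Xirp1 and below them in Xirp2, so the exact p of this pair could only be its lower limit. That p therefore adds nothing to the calls of these genes. Synm minus Des was -0.71 ± 0.43 in PCKO and 1.51 ± 0.04 in WT, a move of -2.22 ± 0.22 that makes the ratio of synemin to desmin mRNA 4.65-fold lower (exact p = 0.029, adjusted p = 0.038). Sync minus Des was -3.10 ± 0.42 in PCKO and -3.13 ± 0.20 in WT, a move of 0.03 ± 0.23 (exact p = 0.91, adjusted p = 0.91). No unequal change of syncoilin and desmin was detectable at this spread. With 4 mice per group the exact test cannot go below 0.029.

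**Figure D3:**
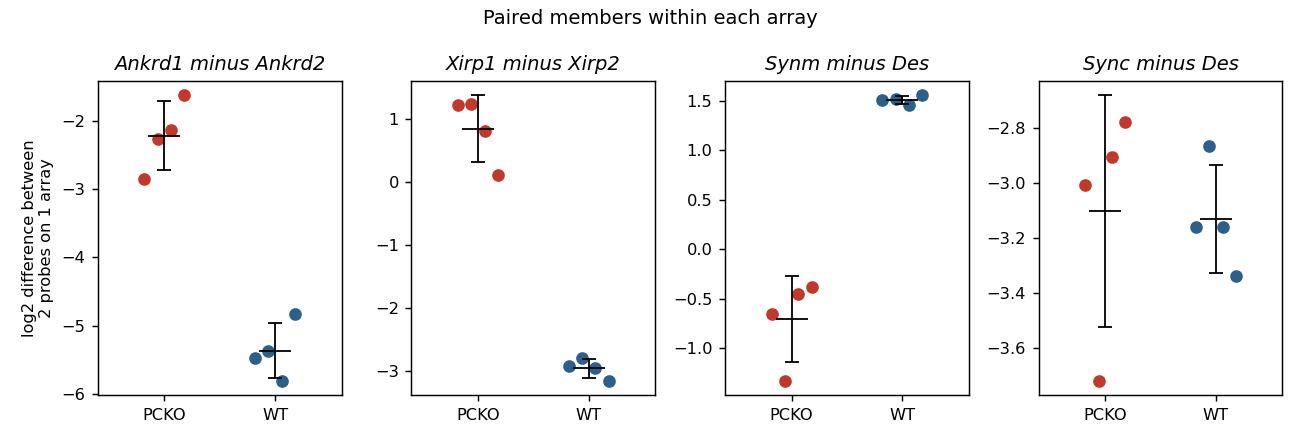
Log2 difference between the brightest probes of 2 genes on the same array (vertical axes, each panel with its own range), for each PCKO and WT mouse (points) with mean and SD. Ankrd1 minus Ankrd2 and Xirp1 minus Xirp2 are higher in every PCKO mouse than in any WT mouse, Synm minus Des is lower in every PCKO mouse, and Sync minus Des overlaps.

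The spread among PCKO mice differed from gene to gene. In Des, Flnc, Xirp1, Xirp2, Ankrd1 and Ankrd2 the SD over PCKO mice was 0.44 to 1.01, and in Synm, Sync, Cmya5 and Capn3 it was 0.11 to 0.14. The first 6 exceed an SD of 0.4, a line drawn after the values were seen, as 9.53% of genes do. In WT mice only Ankrd1 exceeded it (0.59). In all 6 spread genes PCKO 2 was the highest and PCKO 4 the lowest PCKO mouse, an arrangement found in 10.3% of all genes and in 19.3% of the 1210 genes with a PCKO SD above 0.4. Genes that rose and genes that fell thus shared 1 order of mice at its ends. PCKO 4 also had the lowest mean spike-in signal of the 8 arrays (9.69, against 10.22 to 10.66 on the others, in log2 intensity). Centred on spike-ins, PCKO 2 stayed the highest PCKO mouse in all 6 genes, but PCKO 4 was the lowest only in Xirp1 and Ankrd2, and PCKO 1 was the lowest in the other 4. The part of the array scale in this order was not tested beyond these values.

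**Figure D4:**
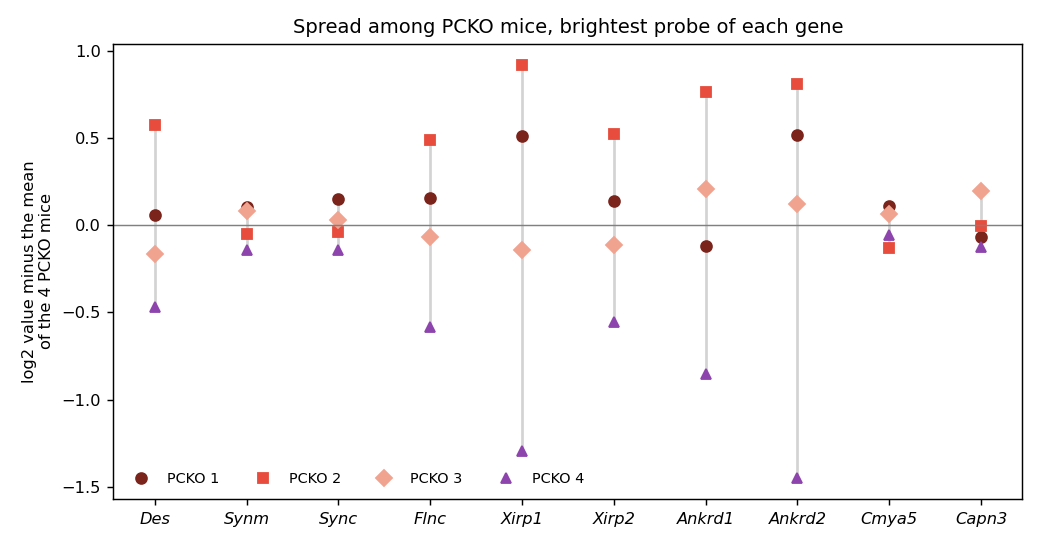
Log2 value of each PCKO mouse minus the mean of the 4 PCKO mice (vertical axis), for the brightest probe of each gene in the main scaling. Squares (PCKO 2) are at the top and triangles (PCKO 4) at the bottom for Des, Flnc, Xirp1, Xirp2, Ankrd1 and Ankrd2, while the 4 mice stay within 0.4 units of one another for Synm, Sync, Cmya5 and Capn3.

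The 5 genes whose values followed Des most closely over the 8 arrays were Kcna6, a potassium channel (Pearson r = 0.993), Gm10406 (0.991), Xirp2 (0.990), Itga1, an integrin subunit (0.9895), and Phc1, a Polycomb protein (0.988). These correlations are descriptions over arrays that share the same 2 groups.

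Related genes were read in 5 lists, also chosen with earlier results of these data known. Each gene named from them was called by limma at an adjusted p of 0.035 or less. Their counts stand against 31.9% of all genes lower and 37.5% higher, and each gene is represented by its brightest probe. Of 21 other intermediate filament and linker genes tested, 12 were lower and 7 higher, with a median of -0.71. Plec, the plakin that ties desmin to Z-discs and membranes, differed by -2.55 ± 0.08 (5.51 ± 0.08 in PCKO and 8.06 ± 0.10 in WT, SD) and Nes, the developmental filament protein nestin, by -2.63 ± 0.16. Emd, the inner nuclear membrane protein emerin, was higher by 2.02 ± 0.18, with its other probe at 1.29. Krt18, a keratin, was higher by 0.98 ± 0.33, a call lost with another background correction (adjusted p = 0.26), without a filter, in each slide row alone, and without PCKO 1, PCKO 3, WT 2 or WT 4 (adjusted p of 0.053 to 0.076). Centred on spike-ins 6 genes of this list were lower and 8 higher.

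Partners of filamin C and Xin at the Z-disc and muscle ends were mostly lower, 19 of 27, with 4 higher and a median of -0.70. By brightest probe the largest differences were those of Myoz2 (-5.28 ± 0.29) and Myoz1 (-4.33 ± 0.15), calsarcins that bind filamin C and calcineurin. A second probe of Ldb3, a Z-disc PDZ and LIM protein named here after its values were seen, differed by -5.29. The largest in the other direction were Parva (0.56 ± 0.12), an actin-binding partner of integrin-linked kinase, and Itgb1 (0.40 ± 0.10), integrin beta 1. The other probes of Parva differed by 0.86 and 1.995 and that of Itgb1 by 0.60. In each slide row alone neither was called (adjusted p of 0.054 and 0.075 for Parva, 0.062 and 0.19 for Itgb1). Flna, a widely expressed filamin, differed by -1.02 ± 0.11, while Flnc was higher. Like every difference, that of Flna moves up by 0.68 with spike-in centring, so its size depends on the scaling. Flna is named here as a paralog, after its values were seen. Spike-in centring left 6 genes lower and 6 higher, with a median of -0.02.

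Titin-linked stretch sensors were lower in 15 of 19 cases and higher in 1, with a median of -1.38. Myom3, an M-band protein, differed by -4.82 ± 0.27 and Tcap, the titin cap telethonin, by -4.45 ± 0.24. The only riser was Nbr1, an autophagy receptor that binds the titin kinase (0.50 ± 0.18), whose call was lost without a filter, in each slide row alone (adjusted p = 0.23 in the lower row), and without PCKO 1, PCKO 2, PCKO 4 or WT 2 (adjusted p of 0.054 to 0.083). Ankrd23, the third muscle ankyrin repeat gene, also named after its values were seen, was at 5.21 ± 0.24 in PCKO and 7.87 ± 0.19 in WT, 6.31-fold lower. With spike-in centring 10 genes of the list were lower and 1 higher.

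Of 11 other genes of the calpain system tested, 5 were lower and 4 higher (median -0.14), against 31.9% and 37.5% of all genes. Dysf, the membrane repair protein dysferlin, differed by -1.27 ± 0.09, and Capn5 by -0.93 ± 0.17. Capn6, a calpain without protease activity, was higher by 1.603 ± 0.08 and Capn10 by 1.33 ± 0.13. Spike-in centring left 0 lower and 5 higher. Capn3 kept its call there (-1.97).

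The list for the YAP and MRTF mechanical response, a route known to drive Ankrd1, holds regulators of the route as well as targets. Of its 20 genes 9 were lower and 7 higher (median -0.12), against the same shares of all genes. This count is therefore no measure of the response itself. Ccn1, a secreted matrix protein and YAP target, stood at 5.44 ± 0.78 in PCKO and 2.62 ± 0.11 in WT, a difference of 2.81 ± 0.34 (adjusted p = 1.3e-04), or 7.02-fold higher. Ccn2, its relative, was 3.82-fold higher (6.999 ± 0.33 in PCKO and 5.07 ± 0.57 in WT). Vgll2 (-2.59 ± 0.21), a muscle cofactor of TEAD proteins, and Vgll4 (-1.70 ± 0.14), a competitor of YAP on them, were lower. By a second probe Lats2 differed by 2.315 (0.73 by its brightest) and Srf by -2.18 (-0.38 by its brightest). Both are named here after their values were seen. Centred on spike-ins 4 genes were lower and 8 higher.

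**Figure D5:**
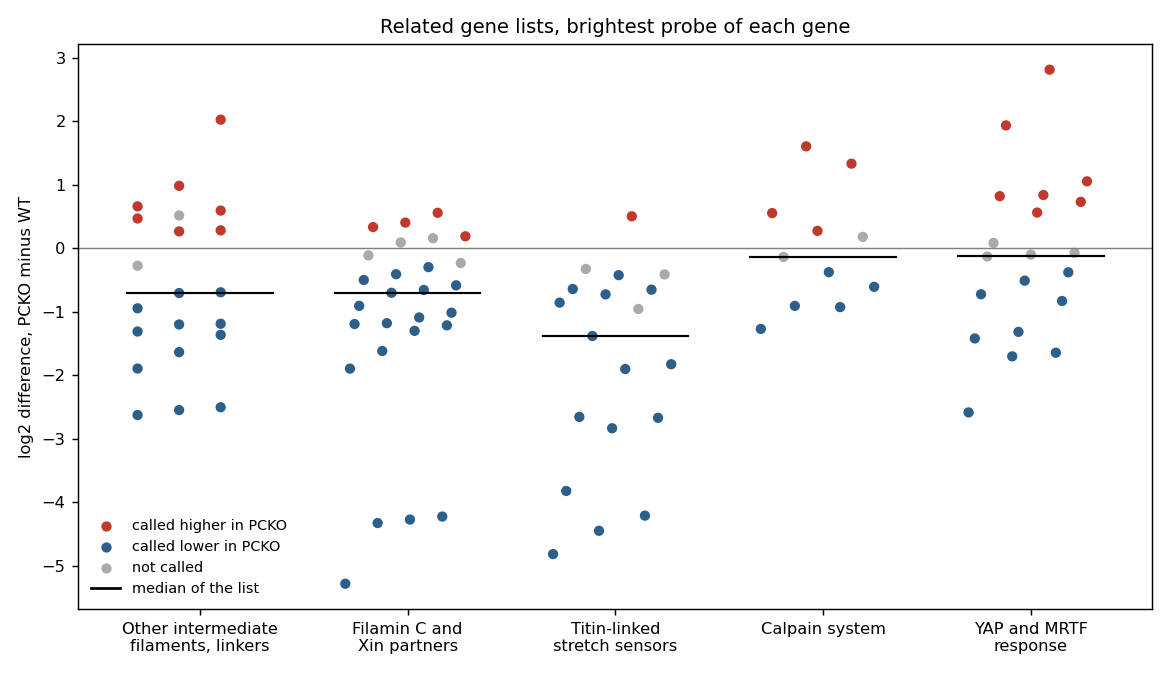
Log2 difference, PCKO minus WT, of each tested gene in the 5 related lists (vertical axis), by brightest probe, with the median of each list as a line. Titin-linked genes and the partners of filamin C and Xin lie mostly below 0, and Ccn1 and Ccn2 are the top 2 points of the YAP and MRTF list.

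Markers of other cell types that EDL muscle holds were also counted, against 31.9% of all genes called lower. In the percentile scaling 5 of 5 were lower for endothelium, 5 of 5 for fibroblasts, 4 of 4 for macrophages, 2 of 3 for satellite cells (with Myf5 not above background on any array), and 3 of 4 for tendon, whose summed level was 7.93 to 13.1 in PCKO and 20.0 to 34.1 in WT. The satellite cell marker tested but not called, Pax7, went the other way, by 0.82 ± 0.42 (limma, adjusted p = 0.12). It was well above background on 3 PCKO arrays and 1 WT array. Of 4 Schwann cell markers 1 was lower and 1 higher. Centred on spike-ins, the lower calls were 0 for endothelium, 3 for fibroblasts, 1 for macrophages, 1 for satellite cells, 2 for tendon and 0 for Schwann cells. In that scaling 1 satellite cell marker (Pax7) and 1 Schwann cell marker were higher. The part of cell composition in the differences of the 10 genes was not tested.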

How the data were processed

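EDL RNA of 8 mice, separate animals per the labels, was labelled with Cy3 and hybridised to 1 Agilent slide, 2 mice of each group in each row of arrays. The deposited scanner files hold spot intensity values made with Feature Extraction 10.7.3.1, background-subtracted and detrended within each array per the file headers, and not normalized between arrays. A deposited table of log2 values for the same arrays served as an alternative only, since no source used here says how it was normalized or centred. Its columns followed their own arrays (r of at least 0.9991), and it lists 32622 of the 55681 non-control probes.

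From each log2 intensity the 75th percentile of all non-control probes on that array was subtracted. Outlier spots were left out and spots of 1 probe averaged. Probes were named through RefSeq accessions without versions (GRCm38.p6): 26582 matched 1 symbol and 29099 stayed unnamed. No probe coordinates are printed because the design uses an older build than this annotation. All 24872 probes well above background on at least 4 arrays were fitted with limma 3.58.1 in R 4.3.3 (group only, two-sided, Benjamini-Hochberg over these probes, threshold 0.05). Arrays had 24207 to 25673 probes well above background, and precision is limited by having 8 of them. Arrays correlated at r of 0.988 to 0.991 within groups and 0.916 to 0.930 between them. Simulated data with known changes were used to test the code.

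The members, lists, pairs and settings were chosen with earlier results of these data known. Genes named are all members, both targeted genes, the 2 lowest and 2 highest non-overlapping calls of each related list, and the 5 genes most like Des. Alternatives were quantile, median and spike-in scaling, a normexp background correction (on the median spot signal, since the mean is not among the columns), the deposited values, other filters, outlier spots kept, 1 probe per gene, an intensity trend, array weights, replicate number and slide row as blocks, each row alone, and leaving out each mouse. Same-numbered mice showed at most weak pairing (r of deviations 0.015 to 0.089), although 3 of the PCKO mice correlated best with the WT mouse of their own number. The numbers were therefore left out of the main fit and used only as a block among the alternatives.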

Additional observations from a re-analysis of the deposited data

Results flagged for a closer look

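Among the 32 sets of 4 values from the 16 probes, 1 held a mouse far from the rest of its group: at the brightest Synm probe WT 2 stood at 7.40 while the other 3 WT mice lay between 7.638 and 7.641, so that its gap was 0.991 of the group's range. The gap is 0.23 log2 units, small beside the difference between groups. Chance marks about 1 in 20 such sets.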

How the results depend on the processing

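In 23 other settings the 6 lower and 3 higher calls among the 10 genes kept their direction wherever the gene had a value, and 6 were called lower in each. The deposited values used here hold no row for Xirp1, Ankrd2 or the brightest probes of Cmya5 and Capn3, so Cmya5 counts there by its other probe (-1.96) and Capn3 by the dim one (-0.80). Higher calls were 3, except 2 in the deposited values and 1 in the lower slide row alone. There Xirp1 (0.78, adjusted p = 0.20), Ankrd1 (2.02, 0.058) and the dim Capn3 probe (-3.06, 0.056) were not called, with 2 mice per group. Spike-in centring shifts all probes alike, so error shared by an array enters it and its p-values are too small. Sync minus Des changed sign, uncalled, under quantile normalization (-0.18) and in the deposited values (-0.15), and was -0.081 to 0.23 without 1 mouse. The cause was not tested.

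Over all genes 1198 were lower with spike-in centring and 2358 in the deposited values, which hold fewer probes, against 4064. Higher genes were 3156 in the upper row alone and 3119 in the lower, against 4777. For probes, 2388 were lower and 13139 higher with spike-in centring, 4023 and 5371 in the deposited values, and 5436 (upper row) and 5458 (lower row) higher, against 7785 lower and 8397 higher. The share of calls that were higher was 85.2% with spike-in centring, 59.0% in the deposited values and 54.0% in the main scaling.

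Of the related lists, the filaments and linkers had 6 lower with spike-in centring and 6 in the deposited values (12 in the main scaling), and 4 higher without a filter, 3 in the upper row and 4 in the lower (7 in the main scaling). Filamin C and Xin partners had 6 and 11 lower in the same 2 settings (19), 2 higher without a filter, 0 higher in each row, and 2 to 3 higher without any 1 mouse (4). The stretch sensors had 0 higher in the deposited values, without a filter and in each row, and 0 to 1 without 1 mouse (1). The calpain system list had 0 lower with spike-in centring, 3 in the deposited values and 3 in the upper row (5). The YAP and MRTF list had 4 lower with spike-in centring and 5 in the upper row (9). With the replicate number as a block 6 genes were lower and 3 higher of the 10, and it changed no call of theirs (Xirp1 at adjusted p = 0.017). Over all genes 4031 were then lower and 4608 higher. The p-values of dim probes depend on the background.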
